A study of Mus musculus with 6 samples.

Results

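The genes described here encode proteins of the mitochondrial ribosome. They are the protein-coding genes whose symbol begins with *Mrpl* (large subunit) or *Mrps* (small subunit) followed by a digit. There were 75 of them among the 17145 genes of the table, 48 large subunit and 27 small subunit by name. Of these, 71 had at least 10 UMIs over the 6 libraries and could be tested, 46 large and 25 small. The 4 others were *Mrps11* with 8 UMIs, *Mrpl58* with 7, *Mrps10* with 5 and *Mrpl24* with 1. The rule that selects the genes uses names and gene type only, but it was set with earlier results of these data known.

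Photo-isolation chemistry profiles the RNA of areas picked under the microscope: primers in a fresh-frozen section stay blocked until ultraviolet light uncages them, and areas were picked here by immunostaining for Atf3, a stress-induced transcription factor. The 3 libraries of Atf3 high and the 3 of Atf3 low areas are labelled as cardiomyocytes from hearts of female mice, and the study calls them biological replicates. Mice of both groups carried the same *Ndufs6* knockdown, a gene-trap allele of a complex I subunit that is lowered above all in the heart, on a mixed background that includes C57BL/6J (FS6KD), so that no wild-type heart is part of the comparison. Counts are of unique molecular identifiers (UMIs), random tags by which copies of a single cDNA molecule are counted once. The age of the mice and whether areas of both groups came from the same hearts are not given in the labels.

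Mitochondria keep their own ribosome to translate the small set of respiratory chain and ATP synthase subunits that mitochondrial DNA encodes. Its ribosomal RNAs come from mitochondrial DNA as well, whereas all of its proteins are encoded in the nucleus, made in the cytosol and imported, so that assembly draws on both genomes. Compared with the bacterial ribosome it is rich in protein, and beside proteins with bacterial homologues it holds many that are specific to mitochondria. Loss of single members causes human disease of the heart and other organs that depend on oxidative phosphorylation.

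Promoter sequences did not enter the choice of members and were searched for the letters of 6 motifs. RefSeq windows of 300 bases (250 before and 50 after the gene start, GRCm38.p6) were found for 67 of the 75 genes. Their median GC content was 58.7%, against 56.3% for the windows of protein-coding genes. Letters bound by GABP (CCGGAAG, on either strand) were found in 24 of the 67 genes, or 35.8%, against 12.9% of 17491 protein-coding genes. Letters of NRF1 (GCATGCGC) were found in 7, or 10.4%, against 3.93%, and letters of YY1 (AAGATGG) in 13, or 19.4%, against 7.18%. These factors are known activators of nuclear genes for mitochondrial proteins. In all, 36 genes held at least one of these 3 motifs, 31 held none of them and 3 held both the GABP and the NRF1 letters. The ATF/CRE letters TGACGTCA, to which proteins of the Atf3 family bind, were found only in *Mrpl16* and *Mrpl49* among these windows, or 2.99%, against 2.54% of protein-coding genes. The AP-1 letters TGANTCA (4.48% against 8.12%) and the TATA box letters TATAAA (7.46% against 14.8%) had smaller shares in these genes than in protein-coding genes. A match is a description of the sequence, not of binding.

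**Figure D1:**
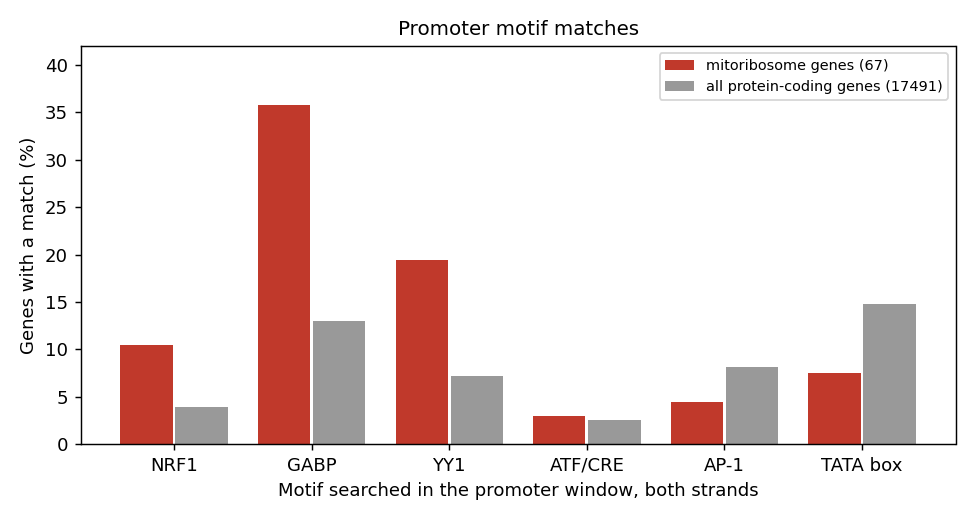
Share of genes (%, vertical axis) whose promoter window of 300 bases held the letters of each motif on either strand, for the 67 mitochondrial ribosomal protein genes with a window (red) and for 17491 protein-coding genes (grey). GABP, NRF1 and YY1 letters had larger shares in the ribosomal protein genes, AP-1 and TATA box letters smaller ones, and the ATF/CRE shares were 2.99% and 2.54%.

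The 250 bases before the start are printed 5′ to 3′ for 5 genes: *Mrpl22*, *Mrpl34* and *Mrpl40*, whose levels were lower in every Atf3 high library, and *Mrpl16* and *Mrpl49*, the 2 with ATF/CRE letters. Capitals mark the letters of NRF1, GABP, YY1 and ATF/CRE, and none of these matches overlaps another. AP-1 and TATA box letters are left in lower case, and of the 5 windows that of *Mrpl16* holds the TATA box letters. The capitals are those of GABP and NRF1 in *Mrpl22* (chr11:58171414-58171663, plus strand), of GABP in *Mrpl34* (chr8:71464676-71464925, plus), of ATF/CRE in *Mrpl16* (chr19:11770165-11770414, plus), and of YY1 and then ATF/CRE in *Mrpl49* (chr19:6057756-6058005, minus). The stretch of *Mrpl40* (chr16:18876638-18876887, minus) holds none of them.
Mrpl22: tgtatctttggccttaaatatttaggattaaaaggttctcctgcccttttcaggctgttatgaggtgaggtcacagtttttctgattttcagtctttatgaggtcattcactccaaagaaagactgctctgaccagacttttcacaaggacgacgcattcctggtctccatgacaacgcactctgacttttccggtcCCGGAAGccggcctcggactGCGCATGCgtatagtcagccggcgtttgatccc
Mrpl34: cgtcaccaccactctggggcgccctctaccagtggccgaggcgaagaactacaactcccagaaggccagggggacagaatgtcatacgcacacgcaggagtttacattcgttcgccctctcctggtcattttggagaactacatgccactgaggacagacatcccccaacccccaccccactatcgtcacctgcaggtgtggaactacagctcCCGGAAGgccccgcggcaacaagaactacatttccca
Mrpl40: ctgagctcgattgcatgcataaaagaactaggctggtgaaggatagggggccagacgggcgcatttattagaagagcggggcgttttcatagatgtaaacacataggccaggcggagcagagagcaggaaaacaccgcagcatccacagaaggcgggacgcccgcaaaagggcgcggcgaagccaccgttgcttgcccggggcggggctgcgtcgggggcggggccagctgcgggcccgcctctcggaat
Mrpl16: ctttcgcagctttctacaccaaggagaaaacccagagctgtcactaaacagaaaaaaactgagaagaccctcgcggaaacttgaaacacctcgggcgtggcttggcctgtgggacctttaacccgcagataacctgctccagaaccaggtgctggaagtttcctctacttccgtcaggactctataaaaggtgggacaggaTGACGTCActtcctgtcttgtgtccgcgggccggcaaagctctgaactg
Mrpl49: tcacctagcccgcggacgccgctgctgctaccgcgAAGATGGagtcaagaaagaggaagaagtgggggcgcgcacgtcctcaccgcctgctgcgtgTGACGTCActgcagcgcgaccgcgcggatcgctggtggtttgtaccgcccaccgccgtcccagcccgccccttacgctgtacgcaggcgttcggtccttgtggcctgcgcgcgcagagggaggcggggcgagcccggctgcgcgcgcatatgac
The ATF/CRE letters begin 49 bases before the start in *Mrpl16* and 154 bases before it in *Mrpl49*. The GABP letters begin 53 bases before the start in *Mrpl22* and 37 bases before it in *Mrpl34*.

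The libraries held between 81117 and 210588 UMIs, and 1 UMI was worth 4.66 to 13.6 CPM (UMI counts scaled to a common library size, here after TMM normalization). For a gene without UMIs, levels below that of 3 UMIs cannot be told from 0, which was 14.0 CPM where a UMI was worth least and 40.9 CPM where it was worth most (counting error only). Between 65 and 74 of the 75 genes had a UMI in each library. Libraries of the 2 groups differed beyond the genes described here. Cardiomyocyte markers summed to 26899 to 51095 CPM of the unscaled library size in Atf3 high and to 45133 to 60183 in Atf3 low, with all 11 tested markers at a lower fitted level in Atf3 high and none at 0 in any library. Fibroblast markers summed to 2051 to 5988 and to 1355 to 2398, with 8 of 9 at a higher fitted level in Atf3 high and 2 of 9 at 0 in some library. Endothelial markers summed to 1356 to 1785 and to 940.0 to 1568, macrophage markers to 185 to 384 and to 210 to 343, and mural cell markers to 370 to 831 and to 464 to 612. Erythrocyte markers summed to 33.2 to 160 and to 0 to 111. The part of these differences in the results was not tested, and in areas of tissue fewer cells of a type and less RNA per cell cannot be told apart. In Atf3 high replicate 2 the Y-linked genes *Ddx3y* and *Eif2s3y* had 8 UMIs each and *Xist* had 0, against its label as female. Values without it are therefore given for the sums and for some single genes. *Atf3* mRNA itself had 50, 7 and 25 UMIs in the Atf3 high libraries and 35, 0 and 8 in the Atf3 low ones, which overlap. The groups rest on immunostaining of the protein.

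The first question was whether the genes as a whole had another level in Atf3 high areas. Together they held 3903 of 855552 UMIs, or 0.456%. Large subunit genes summed to 638, 263 and 678 UMIs in Atf3 high replicates 1 to 3 and to 510, 403 and 251 in Atf3 low. In CPM these were 3242, 3174 and 3158 (3191 ± 44.4, SD, n = 3) in Atf3 high, against 3437, 3362 and 3418 (3406 ± 38.9) in Atf3 low, so that every Atf3 high library was below every Atf3 low one. The spread within groups was 1.39% and 1.14% of the mean. Counting error alone gives 3.84% to 6.31% per library, so this spread is no measure of precision. As shares of all UMIs, however, the same sums were 0.345%, 0.324% and 0.322% in Atf3 high, against 0.297%, 0.321% and 0.306% in Atf3 low, and every Atf3 high library was above. As shares of UMIs of nuclear genes alone they were 0.416%, 0.412% and 0.387% against 0.381%, 0.411% and 0.396%, which overlap. The log2 fold change of the large subunit sum was −0.09 (SE 0.29, 95% interval −0.69 to 0.50) with TMM scaling and 0.11 with scaling by library size, so its direction depended on the scaling.

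Small subunit genes summed to 251, 122 and 330 UMIs in Atf3 high, against 219, 142 and 96 in Atf3 low. Their levels were 1275, 1472 and 1537 CPM (1428 ± 136, SD, n = 3) and 1476, 1185 and 1307 CPM (1323 ± 146), which overlap. As shares of all UMIs they were 0.136%, 0.150% and 0.157% against 0.128%, 0.113% and 0.117%, without overlap. The log2 fold change was 0.11 (SE 0.33, 95% interval −0.56 to 0.78) with TMM and 0.32 by library size. Without Atf3 low replicate 2, the library with the lowest small subunit level, it was −0.01.

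All 75 genes summed to 4517, 4646 and 4695 CPM (4620 ± 92.0, SD, n = 3) in Atf3 high, against 4912, 4547 and 4726 CPM (4728 ± 183) in Atf3 low. The groups overlap, and the log2 fold change was −0.03 (SE 0.28, 95% interval −0.61 to 0.54) with TMM and 0.17 by library size. As a share of all UMIs the sum was 0.481%, 0.475% and 0.479% (0.478% ± 0.00317) in Atf3 high, against 0.425%, 0.434% and 0.424% (0.428% ± 0.00575) in Atf3 low, every Atf3 high library above. As a share of UMIs of nuclear genes alone it was 0.580%, 0.603% and 0.576% against 0.544%, 0.556% and 0.547%, again without overlap. For the sum of all 75 genes the spread within groups was 0.663% and 1.34% of the mean as a share of all UMIs. In CPM it was 1.99% and 3.87%. Counting error alone gives 3.15% to 5.37% per library, so a spread below that is no measure of precision. For the small subunit sum the spread was 7.3% and 6.3% as a share of all UMIs and 9.5% and 11.05% in CPM. For that sum counting error alone gives 5.5% to 10.2% per library. The standard errors of the fitted sums borrow spread from single genes and are therefore wide. No p-value is given for the sums. Without Atf3 high replicate 2 the log2 fold changes with TMM were −0.10 for the large, 0.08 for the small and −0.05 for all genes. The TMM factors were 1.06 to 1.10 in Atf3 high and 0.889 to 0.987 in Atf3 low, and scaling by library size moved the median of all 7665 genes tested, on the log2 fold change scale, from 0.11 to 0.31. Relative to those medians, the sum of all 75 genes was at −0.14 on the log2 scale under both scalings. The sum weights genes by their UMIs and a median does not, so these are unlike measures. With TMM the median of the tested members was 0.07, beside 0.11 for all genes tested.

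**Figure D2:**
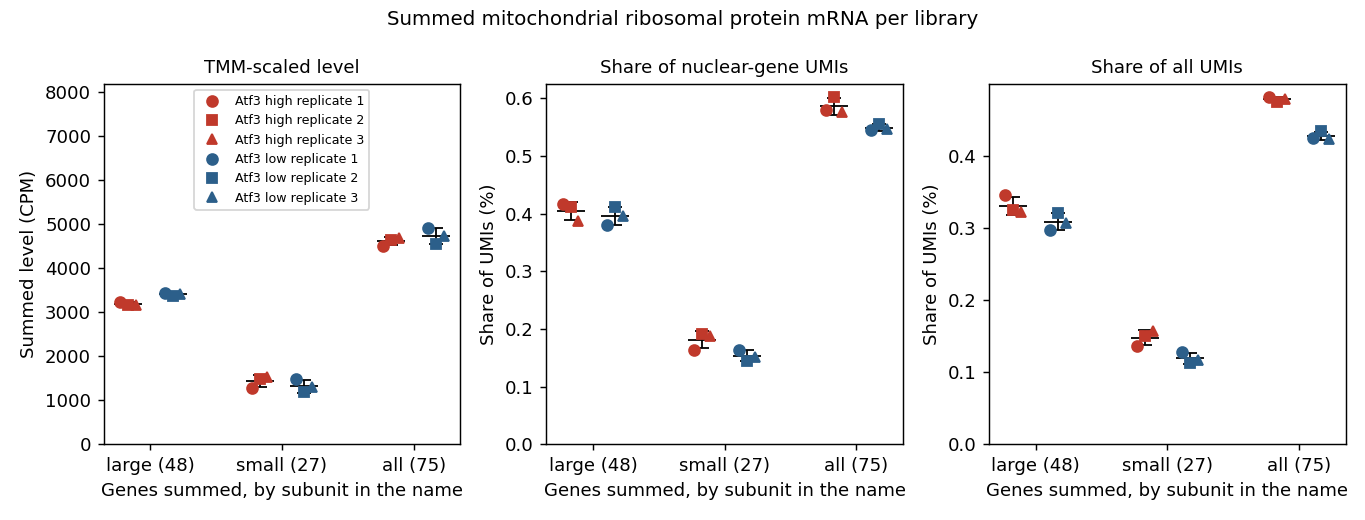
Summed UMIs of the large subunit, small subunit and all mitochondrial ribosomal protein genes in each library, as TMM-scaled CPM (left), as % of UMIs of nuclear genes (middle) and as % of all UMIs (right). Points are single libraries (red Atf3 high, blue Atf3 low, one shape per replicate) and bars are the mean ± SD of 3 libraries; the large subunit sum lies below Atf3 low in the left panel and above it in the right panel.

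Ratios between sums of the same library do not depend on scaling. Large subunit UMIs per small subunit UMI were 2.54, 2.16 and 2.05 (2.25 ± 0.257, SD, n = 3) in Atf3 high, against 2.33, 2.84 and 2.61 (2.59 ± 0.255) in Atf3 low, and the groups overlap. Set against the mitochondrially encoded mRNAs, which this ribosome translates, the genes had 3.69, 3.20 and 3.58 UMIs per 100 of those mRNAs in Atf3 high (3.49 ± 0.258), against 2.34, 2.70 and 2.42 in Atf3 low (2.48 ± 0.188). Every Atf3 high library was above every Atf3 low library in this ratio. That was not particular to these genes. Cytosolic ribosomal protein genes had 22.8, 20.7 and 13.7 UMIs per 100 of those mRNAs in Atf3 high, against 11.2, 11.1 and 8.86 in Atf3 low, also without overlap. Nuclear genes of oxidative phosphorylation had 43.1, 36.0 and 53.2 against 36.0, 35.9 and 41.9, which overlap. With TMM the mitochondrially encoded mRNAs had a log2 fold change of −0.53 (SE 0.20, 95% interval −0.94 to −0.12), with 12 of 12 tested at a lower fitted level in Atf3 high. The ribosomal protein sum had −0.03 with TMM. As means of the shares of all UMIs, those mRNAs had 13.7% in Atf3 high and 17.3% in Atf3 low. The ribosomal protein sum had 0.478% and 0.428%. How much of the difference in the ratio lies in its numerator or its denominator therefore depends on the scaling. The mitochondrial ribosomal RNAs had log2 fold changes of −0.06 for *mt-Rnr1* (SE 0.30) and −0.31 for *mt-Rnr2* (SE 0.28). Per 100 UMIs of the ribosomal RNAs the genes had 11.8, 7.44 and 13.8 in Atf3 high, against 11.4, 7.54 and 8.29 in Atf3 low, which overlap.

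Compared with other nuclear groups, the mitochondrial ribosomal protein genes lay between the cytosolic ribosome and oxidative phosphorylation. Among the 71 tested, the median log2 fold change was 0.07 (−0.0016 for the 46 large and 0.16 for the 25 small subunit genes), beside 0.11 over all genes tested. Scaled by library size it was 0.27, with 27 of the 71 below 0, beside 0.31 over all genes tested. With TMM the median was 0.33 for 81 cytosolic ribosomal protein genes, of which 66 were higher in Atf3 high, and −0.30 for 77 nuclear genes of oxidative phosphorylation, of which 62 were lower. UMIs of the mitochondrial ribosomal protein genes per 100 of nuclear oxidative phosphorylation genes were 8.56, 8.90 and 6.73 in Atf3 high, against 6.50, 7.52 and 5.78 in Atf3 low. Per 100 UMIs of cytosolic ribosomal protein genes they were 16.2, 15.4 and 26.1 and 20.9, 24.3 and 27.3. Both ratios overlap between the groups, and whether the groups of genes differ in their change was not tested.

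**Figure D3:**
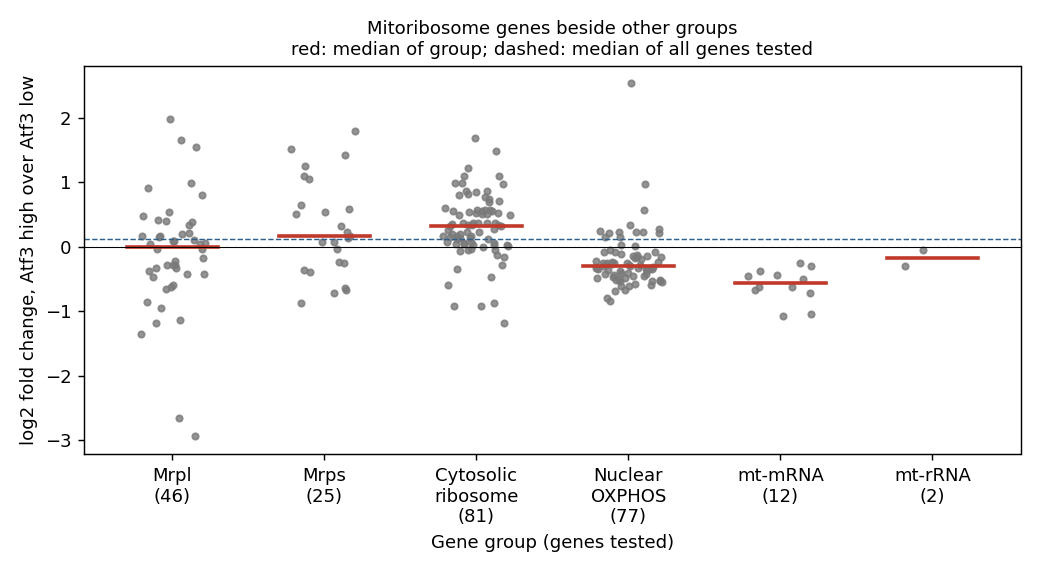
Log2 fold change of each tested gene, Atf3 high over Atf3 low with TMM scaling (vertical axis), for the mitochondrial ribosomal protein genes (Mrpl, Mrps) and 4 other groups, with the number tested in brackets; red bars are medians and the dashed line is the median of all genes tested, 0.11. Medians were −0.0016, 0.16, 0.33 and −0.30 for Mrpl, Mrps, cytosolic ribosome and nuclear oxidative phosphorylation (OXPHOS), and all 12 mitochondrially encoded mRNAs lay below 0.

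Single genes were then tested in the quasi-likelihood framework of edgeR, with adjusted p-values (Benjamini-Hochberg) taken over all 7665 genes. None of the 71 passed an adjusted p of 0.05, and the smallest adjusted p was 0.79. Over all genes 7 passed, or 0.0913%. DESeq2 and limma-trend also called 0 of the 71, although DESeq2 gave 36 of them no adjusted p. At an unadjusted p under 0.05, edgeR had 0 of the 71 higher in Atf3 high, where 3.55% of all genes were, and 3 lower (4.23%), where 2.24% of all genes were. The fold change was below 0 for 32 of the 71 (45.1%), near the 44.8% of all genes tested. Every Atf3 high library was above every Atf3 low library for 2 of the 71 (2.82%), against 7.07% of all genes, and below for 3 (4.23%), against 3.89%. Apart from the count of fold changes below 0, each of these counts rests on 3 genes or fewer. The log2 fold changes ran from −2.95 to 1.97, and 57 lay between −1 and 1.

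Precision was limited for every gene. The standard errors ran from 0.48 to 1.48 on the log2 scale, with a median of 0.80 beside 0.99 over all genes tested. For 0 of the 71 did the 95% interval lie within −1 and 1, so a change of log2 size 1 in at least one direction was within the interval of each, and for 36 it lay within −2 and 2. The tested genes had from 13 to 168 UMIs (median 43, beside 29 for all genes tested), and 55 of them had a UMI in every library.

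**Figure D4:**
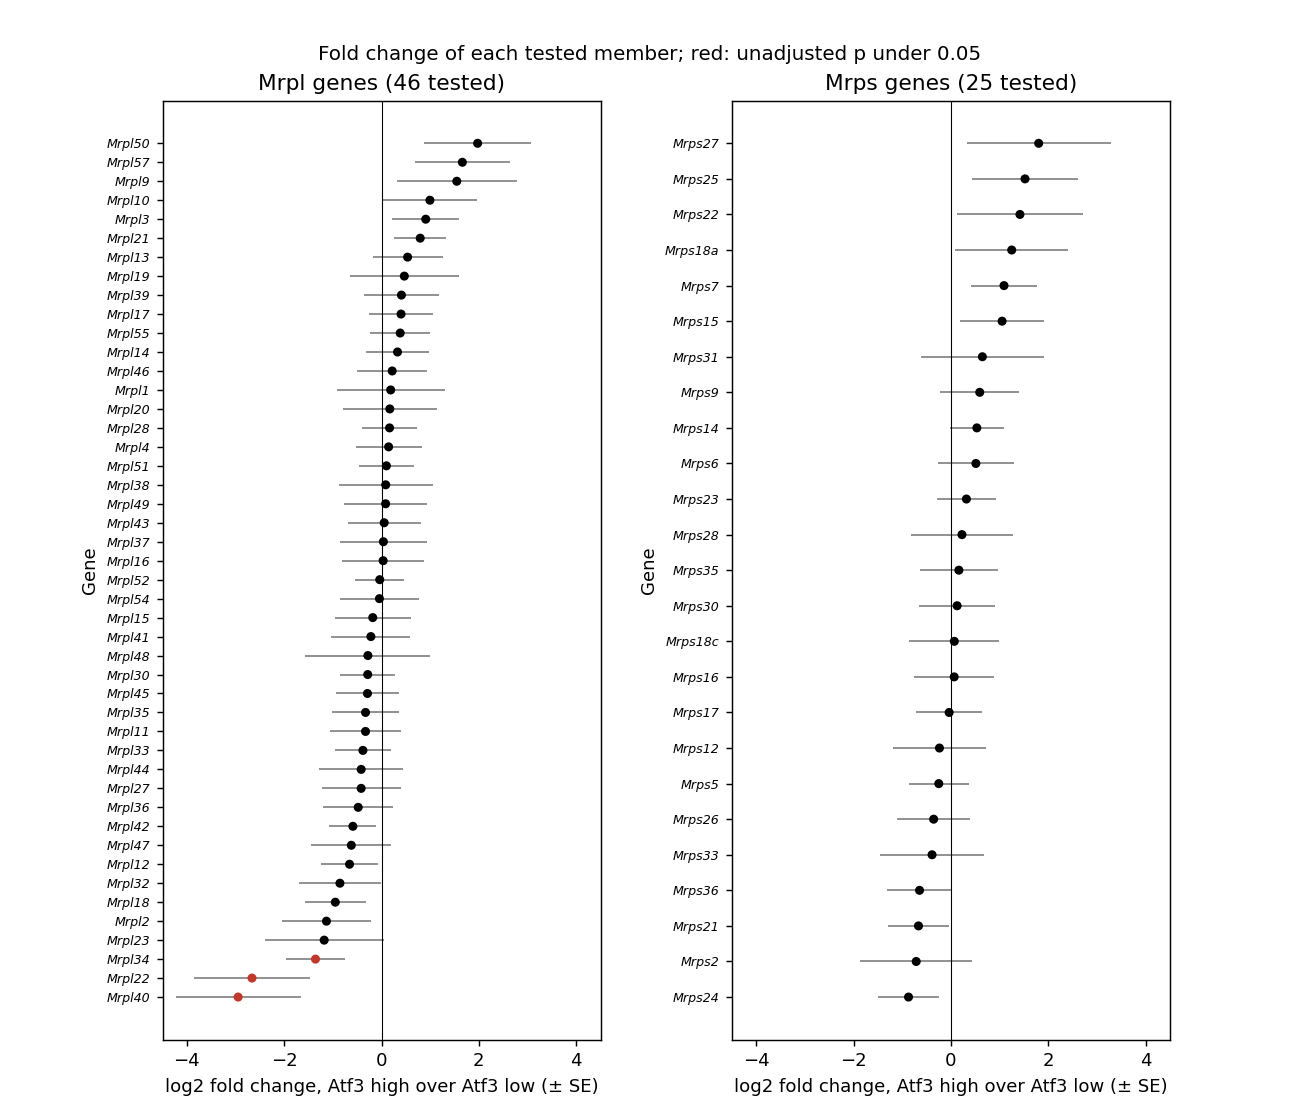
Log2 fold change, Atf3 high over Atf3 low (horizontal axis), with its SE for each of the 46 large subunit (left) and 25 small subunit (right) genes tested, ordered by value. Red points are the 3 genes with an unadjusted p under 0.05; none passed the adjusted threshold, and values ran from −2.95 to 1.97.

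The 3 genes with an unadjusted p under 0.05 all belong to the large subunit, and all were lower in every Atf3 high library. *Mrpl34*, a protein with a bacterial homologue (gene at chr8:71464959-71465747, plus strand, GRCm38), had 19, 5 and 6 UMIs in Atf3 high, against 23, 19 and 12 in Atf3 low. Its levels were 96.5, 60.3 and 27.9 CPM in Atf3 high, against 155, 159 and 163 CPM in Atf3 low. The Atf3 low levels rest on 12 to 23 UMIs per library, so their closeness is no measure of precision. The fitted log2 fold change was −1.36 (SE 0.60, edgeR adjusted p = 0.793). Over the alternative settings it ran from −1.94 to −0.97, and it was −1.36 without Atf3 high replicate 2.

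*Mrpl22*, which lines the exit tunnel of the nascent chain (chr11:58171661-58179565, plus), had 2, 0 and 1 UMIs in Atf3 high, against 5, 6 and 3 in Atf3 low. In CPM these were 10.2, 0 and 4.66 against 33.7, 50.1 and 40.9. All its Atf3 high levels rest on 2 UMIs or fewer, and a level of 0 in replicate 2 allows one of up to 3 UMIs. There 3 UMIs are 36.2 CPM, above the 33.7 CPM of Atf3 low replicate 1, so the groups could overlap. The fitted log2 fold change was −2.66 (SE 1.20, edgeR adjusted p = 0.817). A pseudogene with 97.1% identity over 621 bases, *Gm6997*, had 2 UMIs of its own.

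*Mrpl40*, specific to the mitochondrial ribosome (chr16:18872018-18876862, minus), had 1, 1 and 0 UMIs in Atf3 high, against 8, 3 and 3 in Atf3 low. The levels were 5.08, 12.1 and 0 CPM against 53.9, 25.0 and 40.9 CPM. Its log2 fold change was −2.95 (SE 1.29, edgeR adjusted p = 0.792), and −3.65 without Atf3 high replicate 2. With 17 and 16 UMIs over all libraries, *Mrpl22* and *Mrpl40* were among the genes of fewest counts.

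In the other direction, *Mrps7* and *Mrpl50* were higher in every Atf3 high library. *Mrps7*, which binds the small ribosomal RNA (chr11:115603925-115608036, plus), had 12, 8 and 33 UMIs in Atf3 high, against 9, 5 and 3 in Atf3 low. Its levels of 61.0, 96.5 and 154 CPM were above 60.6, 41.7 and 40.9 CPM, with the closest libraries less than 1 UMI apart. Its log2 fold change was 1.09 (SE 0.68, edgeR adjusted p = 0.964), and 0.65 without Atf3 high replicate 3. It overlaps *Gga3* on the opposite strand, and whether counting used strand is not given in the sources used here.

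*Mrpl50*, specific to mitochondria (chr4:49512596-49521093, minus), had 14, 3 and 6 UMIs in Atf3 high, against 3, 1 and 0 in Atf3 low, or 71.1, 36.2 and 27.9 CPM against 20.2, 8.34 and 0 CPM. The 0 in Atf3 low replicate 3 allows up to 3 UMIs, or 40.9 CPM, above the levels of Atf3 high replicates 2 and 3, so the groups could overlap. The log2 fold change of *Mrpl50* was 1.97 (SE 1.10, edgeR adjusted p = 0.942). The next smallest p-values among genes higher in Atf3 high were those of *Mrpl57* (log2 fold change 1.66, SE 0.97), *Mrpl21* (0.80, SE 0.54) and *Mrps25* (1.52, SE 1.08). All 3 overlap between the groups. Without Atf3 high replicate 1, which held 20 of its 34 UMIs, *Mrpl57* was at 0.84. *Mrpl21* was at 0.40 without Atf3 low replicate 3 and at 1.30 without Atf3 low replicate 1. *Mrps25* had 22 of its 32 UMIs in Atf3 high replicate 3, and without that library its value was −0.06. Among genes lower in Atf3 high, *Mrpl18* (−0.95, SE 0.62) and *Mrps24* (−0.87, SE 0.62) followed, and these overlap too. Leaving out a library moved *Mrps24* between −1.43 (without Atf3 high replicate 2) and −0.53 (without Atf3 high replicate 1).

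**Figure D5:**
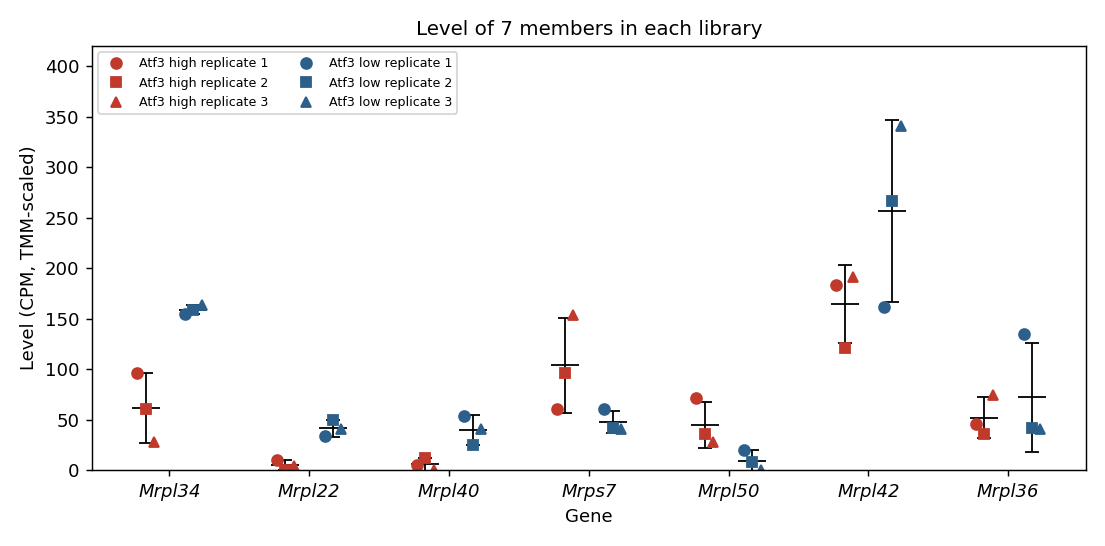
Level in CPM (TMM-scaled, vertical axis) of 7 mitochondrial ribosomal protein genes in each library; points are libraries (red Atf3 high, blue Atf3 low, one shape per replicate) and bars are the mean ± SD of 3 libraries. *Mrpl34*, *Mrpl22* and *Mrpl40* lie lower and *Mrps7* and *Mrpl50* higher in every Atf3 high library, while *Mrpl42*, the gene of most UMIs, and *Mrpl36*, the neighbour of *Ndufs6*, overlap.

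The 10 genes of most UMIs held 1225 of the 3903 UMIs, or 31.4%. *Mrpl42*, specific to mitochondria, had the most (168), with 183, 121 and 191 CPM in Atf3 high, against 162, 267 and 340 CPM in Atf3 low (log2 fold change −0.59, SE 0.48). *Mrpl21* had 264, 302 and 116 CPM in Atf3 high, against 202, 125 and 40.9 CPM in Atf3 low. *Mrpl33* had 254, 60.3 and 112 CPM against 121, 400 and 40.9 CPM (−0.38, SE 0.58), and it differed as much within the groups as between them.

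*Mrpl52* had 132, 338 and 130 CPM in Atf3 high, against 182, 159 and 259 CPM in Atf3 low (log2 fold change −0.04, SE 0.50; 0.17 by library size). *Mrpl28* (0.17, SE 0.56), *Mrps14* (0.53, SE 0.55), *Mrpl30* (−0.28, SE 0.56), *Mrpl51* (0.10, SE 0.56) and *Mrps23* (0.32, SE 0.60) overlap between the groups as well. *Mrpl12*, the stalk protein that recruits translation factors and also binds the mitochondrial RNA polymerase, had 50.8, 84.5 and 121 CPM in Atf3 high, against 67.4, 184 and 163 CPM in Atf3 low (−0.66, SE 0.59). In all, the 10 genes of most UMIs overlap between the groups without exception.

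By evolutionary class, 28 large subunit proteins with bacterial homologues were tested, of which 15 had a fold change below 0 (median −0.23), and 17 specific to mitochondria, of which 8 did (median 0.04). In the small subunit these were 6 of 14 (median 0.07) and 2 of 8 (median 0.48). *Mrpl55* (log2 fold change 0.38, SE 0.62) was left out of both classes, and *Mrps18a*, *Mrps30* and *Mrps36* are given apart. *Mrps18a* and *Mrps30*, which carry a small subunit name but sit in the large subunit, had log2 fold changes of 1.25 (SE 1.16) and 0.13 (SE 0.79). Counting them with the large subunit gave −0.08 for its sum and 0.10 for the small subunit sum. *Mrps36*, since assigned to the 2-oxoglutarate dehydrogenase complex, had −0.65 (SE 0.67). *Mrpl58*, a release factor that frees stalled ribosomes, had 1, 1 and 4 UMIs in Atf3 high, against 1, 0 and 0 in Atf3 low and was not tested.

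Variants of *Mrpl3*, *Mrpl44*, *Mrps14* and *Mrps22* are known causes of human cardiomyopathy. *Mrpl3* had 45.7, 181 and 102 CPM in Atf3 high, against 40.4, 83.4 and 40.9 CPM in Atf3 low (log2 fold change 0.91, SE 0.68, 95% interval −0.47 to 2.29). *Mrpl44* had 50.8, 12.1 and 37.3 CPM against 53.9, 58.4 and 27.2 CPM (−0.42, SE 0.86). *Mrps22* had 9, 1 and 3 UMIs against 2, 0 and 1 (1.42, SE 1.30). *Mrps14* had 117, 266 and 135 CPM against 155, 66.7 and 123 CPM. Levels of all 4 overlap between the groups, and none passed the test. Without Atf3 high replicate 2 the log2 fold change was 0.41 for *Mrpl3*, −0.13 for *Mrpl44* and 0.12 for *Mrps14*, and without Atf3 low replicate 2 it was 0.81 for *Mrps22* and 0.20 for *Mrps14*. *Mrpl44* was at −0.80 without Atf3 high replicate 1 and at −0.66 without Atf3 low replicate 3, and *Mrps14* at 0.80 without Atf3 low replicate 1.

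*Mrpl36* stands head to head with *Ndufs6*, the gene disrupted in these mice, and was singled out for that position after its values had been seen. In the annotation *Mrpl36* (chr13:73328513-73332178, plus) and *Ndufs6* (chr13:73319838-73328542, minus) share 30 bases at their starts. For *Ndufs6* there were 2, 0 and 3 UMIs in Atf3 high, against 0 in each Atf3 low library. *Mrpl36* had 9, 3 and 16 UMIs in Atf3 high, against 20, 5 and 3 in Atf3 low, or 45.7, 36.2 and 74.5 CPM and 135, 41.7 and 40.9 CPM. Its transcript was thus detected in all 6 libraries, and its log2 fold change was −0.48 (SE 0.72, adjusted p = 0.996 by edgeR). Without wild-type libraries, its level here cannot be set against that of an intact locus.

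Near-identical copies limit what single genes show. In the annotation 18 of the 75 genes had a copy elsewhere (identity of 95% or more in an alignment of 200 bases or longer), and 8 had one in the table. *Mrps26* also matched 25 genes of the table, but only over 200 to 211 bases each and on either strand. Of the 17 tested with a copy, 13 had a fold change below 0 (median −0.36), and of the 54 without, 19 did (median 0.15). These were not tested against each other. *Mrpl23* had 16 UMIs, while its pseudogene *Mrpl23-ps1*, identical to it over 540 bases, had 77, or 82.8% of the pair. The log2 fold change was −1.18 (SE 1.22) for *Mrpl23* alone and −0.64 (SE 0.58) for the pair. *Mrps36* had 60 UMIs and its copies 26, and together they had −0.49 (SE 0.59). Leaving out all genes with a copy gave −0.06 for the large subunit sum, 0.28 for the small and 0.03 for all, the last with another sign than −0.03. In addition, 39 genes overlap another gene in the annotation, 33 of them one on the opposite strand.

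By motif match, median log2 fold changes were 0.05 for 23 tested genes with GABP letters and 0.04 for 40 without, 0.40 for 7 with NRF1 letters and 0.04 for 56 without, and −0.14 for 12 with YY1 letters and 0.07 for 51 without. Differences between genes with and without a match were not tested. *Mrpl16* and *Mrpl49*, with the ATF/CRE letters shown above, had log2 fold changes of 0.03 (SE 0.85) and 0.08 (SE 0.85).

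Proteins that work with this ribosome were counted by lists drawn up by role. Of their 62 tested genes, 0 passed an adjusted p of 0.05 by edgeR, DESeq2 or limma-trend, although DESeq2 gave 43 of them no adjusted p. At an unadjusted p under 0.05 edgeR had 3 higher in Atf3 high, *Gars*, *Polg* and *Polrmt*, and 1 lower, *Ppargc1a*, where 3.55% and 2.24% of all genes tested were. Of 5 mitochondrial ribosomal proteins under other names, 3 were lower: *Dap3*, a GTP-binding small subunit protein, had −0.79 (SE 0.58), *Aurkaip1* −0.32 (SE 0.71) and *Gadd45gip1* −0.28 (SE 0.76), while *Chchd1* had 0.23 (SE 0.64) and *Ptcd3* 1.09 (SE 1.20). Adding these 5 to the sums gave −0.10 for the large, 0.03 for the small and −0.05 for all genes. Of 13 assembly factors 7 were lower (median −0.09), with *Trub2* at −1.89 (SE 1.29) and *Malsu1* at 1.13 (SE 0.91). Of 10 translation factors and partners 5 were lower (median −0.01). Among these *Lrpprc*, which stabilizes mitochondrial mRNAs, had 132, 145 and 140 CPM in Atf3 high, against 87.6, 75.1 and 54.5 CPM in Atf3 low, without overlap (log2 fold change 0.90, SE 0.58, adjusted p = 0.964). *Oxa1l*, which inserts the new chains into the inner membrane, had 45.7, 24.1 and 32.6 CPM against 60.6, 75.1 and 123 CPM, without overlap in the other direction (−1.23, SE 0.75, adjusted p = 0.964). *Mtif2*, the initiation factor, had 4, 1 and 7 UMIs against 1, 0 and 0 (2.68, SE 1.55).

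Of 13 aminoacyl-tRNA synthetases and amidotransferase subunits, which charge mitochondrial tRNAs, 6 were lower (median 0.21). *Gars*, which serves the cytosol as well, had 325, 193 and 107 CPM in Atf3 high, against 53.9, 41.7 and 54.5 CPM in Atf3 low (log2 fold change 2.05, SE 0.60, edgeR adjusted p = 0.462), without overlap, and *Sars2* had −1.61 (SE 1.22). Of 12 genes for mitochondrial transcription, RNA processing and DNA replication 3 were lower (median 0.45). The DNA polymerase *Polg* had 7, 3 and 17 UMIs in Atf3 high, against 1 in each Atf3 low library (2.40, SE 1.09), and the RNA polymerase *Polrmt* had 13, 2 and 15 against 1, 3 and 0 (2.19, SE 1.05). *Hsd17b10*, a subunit of the enzyme that cuts tRNAs from mitochondrial transcripts, had −0.35 (SE 0.58). Of 9 regulators of nuclear genes for mitochondrial proteins 3 were lower (median 0.61). *Ppargc1a*, the coactivator of mitochondrial biogenesis, had 86.4, 133 and 163 CPM in Atf3 high, against 276, 275 and 422 CPM in Atf3 low (−1.33, SE 0.48, adjusted p = 0.649), every Atf3 high library below. *Myc* had 5, 10 and 1 UMIs against 0, 1 and 1 (2.68, SE 1.33).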

How the data were processed

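The deposited file holds raw UMI counts per gene for 6 libraries, which the authors made without normalization. The submitters' processing notes name UMI-tools (1.0.0), HISAT2 (2.1.0), featureCounts (1.6.4) and GRCm38. The annotation, the strand setting and the treatment of reads with several matches are not given in the sources used here, and each bears on genes with copies or overlapping neighbours. Libraries held 81117 to 210588 UMIs, and limits set by a count of 0 cover counting error only, while the SE and intervals of fold changes hold the spread between libraries. The edgeR p-values rest on the spread between libraries within groups, estimated for each gene with information shared over all genes tested. They do not measure the spread of the 3 libraries of a group for that gene alone.

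Genes with at least 10 UMIs over all libraries (7665) were normalized by TMM and tested by edgeR (4.0.16) with glmQLFit and glmQLFTest in R (4.3.3), without covariates and two-sided, with Benjamini-Hochberg adjustment. SE is the log2 fold change divided by the root of F. Sums were added to the same fit as rows. DESeq2 (1.42.0), limma-trend (limma 3.58.1) on log2(CPM + 4), other scalings and filters, a replicate block and leaving out each library were alternatives. The method was checked on simulated data. The sums with UMIs of pseudogene copies added, and the lists of cytosolic ribosomal protein and oxidative phosphorylation genes, were chosen after seeing the data. The genes and lists described were chosen with earlier results of these data known.

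Named genes were the 10 of most UMIs, the 5 of smallest unadjusted p in each direction, every member with an unadjusted p under 0.05, cardiomyopathy genes, members of special role and, of each related list, the gene of smallest p in each direction. *Lrpprc*, *Mrps26*, *Polrmt*, *Mrpl16*, *Mrpl23*, *Mrpl36* and *Mrpl49* were added after their values had been seen. Copies were found by BLAST+ (2.17.0) of GENCODE M21 transcripts (GRCm38). All 75 symbols matched GENCODE, which lists 78 such genes; the others were not analysed here. Promoters are RefSeq windows (GRCm38.p6).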

Additional observations from a re-analysis of the deposited data

Results flagged for a closer look

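Groups of 3 libraries are too small for a test of single outlying libraries, and the design has no second contrast. Pseudogene copies are not members, although those with at least 10 UMIs were among all genes tested. The copies given here matched on the same strand and held more than 3 UMIs over all libraries together. *Mrpl23-ps1* had 77 UMIs in all, beside 16 for *Mrpl23*. *Mrps36-ps2* had 24, beside 60 for *Mrps36*. *Gm11945*, a copy of *Mrpl30*, had 6, beside 101. How reads that match both were assigned is not given in the sources used here.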

How the results depend on the processing

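Under every alternative run 0 of the members passed an adjusted p of 0.05. Scaling by library size turned the large subunit sum to 0.11, the sum of all members to 0.17 and *Mrpl52* to 0.17 (0.014 without a filter on low counts). Without members that have a copy the sum of all was 0.035. With edgeR's own filter, which left 26 members, the median log2 fold change was −0.13, 15 were below 0 and 1 was lower at an unadjusted p under 0.05. With limma-trend 1 member (*Mrpl50*) was higher at that p. With a replicate block 1 (*Mrpl34*) was lower and the median was 0.04. Libraries of the same number correlated at 0.00 to 0.09 in their deviations from the group means, and those of unlike number at −0.09 to 0.02. In Atf3 low replicate 2 *Ddx3y* and *Eif2s3y* had 0 UMIs and *Xist* had 13, unlike Atf3 high replicate 2. The numbers were not taken as pairs. Leaving out each library gave a median of −0.083 to 0.096, a small subunit sum of −0.013 to 0.19, 0 to 1 members higher and 0 to 3 lower at that p (0 lower without Atf3 high replicate 3). Then *Mrpl52* ran from −0.60 to 0.20, *Mrpl30* from −0.82 to 0.080, *Mrpl28* from −0.35 to 0.85, *Mrpl51* from −0.16 to 0.24, *Mrps25* from −0.059 to 1.98, *Mrps23* from −0.0083 to 0.55, *Mrps30* from −0.44 to 0.69 and *Mrpl33* from −1.09 to 0.72. *Mrpl42* ran from −0.89 to −0.36, *Mrpl12* from −1.06 to −0.38 and *Mrps36* from −0.995 to −0.32. Of the 25 named members, 17 kept their sign in every fit made. The cause of these shifts was not tested. Depth limits single genes.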
